A study of Homo sapiens with 12 samples.

Results

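The genes described here are 4 receptors for steroids other than progesterone and 2 textbook androgen target genes, measured in U87 cells after treatment with steroids of the progesterone pathway. The receptors are ESR1 and ESR2, which bind estrogens, NR3C1, which binds glucocorticoids, and NR3C2, which binds mineralocorticoids. The targets are KLK3 and TMPRSS2. A gene was represented by the rows of the expression table that are annotated with its symbol alone, and the brightest such row over the 12 arrays was taken as its main row. Of the 6 genes, 5 had a row of their own, in 6 rows (ESR1 had 2), out of 33297 rows in the table. TMPRSS2 had none and is described through the row it shares with other genes.

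U87 is a human glioblastoma cell line. After 72 h of treatment its total RNA was hybridised to Affymetrix Human Gene 1.0 ST arrays, with 3 arrays per treatment labelled as biological replicates. Cells received 10 nM allopregnanolone (3α-THP), 10 nM progesterone (P4), 100 nM finasteride (F) or vehicle (V, DMSO), and all had been moved beforehand into medium free of phenol red with charcoal-stripped serum, which removes most steroid hormones. The labels give the vehicle both as 0.1% and as 10% DMSO, and the paper's methods give 0.1%. All values come from 1 cell line with 1 dose of each compound and 1 time, and no group received an estrogen, an androgen, a glucocorticoid or a mineralocorticoid.

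Steroid receptors are transcription factors that are held by chaperones until a hormone binds, then pair up on DNA and recruit coregulators to target genes. 3α-THP is formed from P4 by reduction of its A ring, by a 5α-reductase and then a 3α-hydroxysteroid dehydrogenase, and is best known as a modulator of the GABA-A receptor. P4 binds the progesterone receptor and is also a ligand of the mineralocorticoid receptor. F inhibits 5α-reductase, the enzyme that also makes dihydrotestosterone, the strong androgen that drives KLK3 and TMPRSS2 in the prostate.

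Androgen, glucocorticoid and mineralocorticoid receptors bind copies of the half-site AGAACA, which reads TGTTCT on the other strand, and estrogen receptors bind copies of AGGTCA, which reads TGACCT there. RefSeq promoter windows on GRCh38.p14, each reaching from 250 bases before to 50 bases after a transcript start, were found for 5 of the 6 genes, in 23 windows. The windows of KLK3, ESR1 and ESR2 are printed to show where these letters stand, and that of NR3C2 because this gene had the largest difference between steroids. Capitals mark a half-site on either strand, and each sequence runs 5′ to 3′ on the strand of its gene.
KLK3, chr19:50854665-50854964, plus strand: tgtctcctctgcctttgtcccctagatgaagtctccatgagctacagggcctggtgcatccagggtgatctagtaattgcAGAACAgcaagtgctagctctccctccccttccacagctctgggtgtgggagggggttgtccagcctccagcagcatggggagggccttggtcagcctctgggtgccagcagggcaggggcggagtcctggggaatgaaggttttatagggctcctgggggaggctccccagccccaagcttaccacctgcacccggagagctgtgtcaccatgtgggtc
ESR1, chr6:151656422-151656721, plus strand: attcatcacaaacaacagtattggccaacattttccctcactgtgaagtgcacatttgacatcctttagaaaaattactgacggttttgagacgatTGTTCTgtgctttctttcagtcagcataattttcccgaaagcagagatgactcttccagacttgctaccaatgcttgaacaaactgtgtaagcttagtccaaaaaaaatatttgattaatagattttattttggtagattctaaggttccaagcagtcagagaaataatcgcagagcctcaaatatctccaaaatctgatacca
ESR2, chr14:64294361-64294660, minus strand: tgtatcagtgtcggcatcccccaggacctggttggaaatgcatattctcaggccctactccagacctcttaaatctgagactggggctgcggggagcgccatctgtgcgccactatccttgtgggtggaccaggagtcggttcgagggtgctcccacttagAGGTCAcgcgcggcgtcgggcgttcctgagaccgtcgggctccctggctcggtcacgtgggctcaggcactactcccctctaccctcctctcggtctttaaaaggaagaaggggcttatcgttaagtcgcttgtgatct
NR3C2, chr4:148445273-148445572, minus strand: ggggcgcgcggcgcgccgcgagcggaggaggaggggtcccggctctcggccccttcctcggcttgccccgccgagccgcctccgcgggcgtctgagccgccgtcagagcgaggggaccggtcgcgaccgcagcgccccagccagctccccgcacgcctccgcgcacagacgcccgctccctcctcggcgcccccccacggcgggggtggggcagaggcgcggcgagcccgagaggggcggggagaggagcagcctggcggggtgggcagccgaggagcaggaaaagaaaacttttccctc
The KLK3 half-site begins 170 bases before the start, that of ESR1 154 bases before it on the other strand, and that of ESR2 89 bases before it, at a start within the gene and not at its outermost one. AGAACA was present in 3 of the 23 windows (1 each of KLK3, ESR1 and ESR2), and in 14.79% of all 35116 promoter windows of the same length. AGGTCA was also present in 3, all of ESR2, and in 13.83% of all. The 3 ESR2 windows hold 2 distinct sites, since the printed window overlaps another that holds the same one. None of the 7 NR3C1 or 4 NR3C2 windows held either half-site. The full palindromes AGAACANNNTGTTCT and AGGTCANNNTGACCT, each of which reads the same on both strands, were in 0 of the 23 and in 1 of the 35116 windows each. These are matches of letters only, and receptor binding was not measured.

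Values are log2 summaries per transcript cluster, the set of probes placed on 1 transcribed region, and a difference of 1 is a doubling of signal. Over the 21214 clusters with a gene name, array medians lay between 6.35 and 6.40. The table holds no detection calls, and background was not tested. Of the 12 measured glial and glioma markers, VIM, CD44, CHI3L1 and SLC1A3 were brighter than 93.7% of clusters or more, GFAP was brighter than 46.2%, and SOX2, S100B and AQP4 lay below the 25th percentile. The summed signal of these markers was 13.65 to 13.77 (log2) on 3α-THP arrays, 13.72 to 13.87 on P4, 13.74 to 13.81 on F and 13.75 to 13.79 on V. Of 5 markers of microglia and blood, 3 lay below the 25th percentile, and the median was 12.7%. Among them PTPRC was brighter than 3.92% of clusters and CD68, a lysosomal gene, than 98.2%. The 3 measured oligodendrocyte markers lay from 15.8% to 31.2%. The 9 measured markers of prostate or other epithelium lay from 3.50% (MSMB) to 69.0% (ACP3), with a median of 38.2% and 3 below the 25th percentile, among them EPCAM (10.1%). The 5 measured neuron markers lay from 13.7% (STMN2) to 86.9% (SNAP25), and 2 of them had differences with an unadjusted p under 0.05. RBFOX3 differed from V by 0.33 with P4 and by 0.33 with F, and SYT1 by 0.31 with 3α-THP (limma adjusted p from 0.611 to 1.000). SYT1 was also 0.35 higher with 3α-THP than with P4 (adjusted p = 0.999), and none of the neuron markers was called. Their summed signal was 9.01 to 9.21 with 3α-THP, 9.01 to 9.22 with P4, 9.06 to 9.37 with F and 8.98 to 9.22 with V, and their part in the differences below was not tested. Brightness ranks depend on each row's probes and were not used to set one gene's RNA against another's.

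None of the 5 genes passed the threshold of the study's methods in any of 4 comparisons (limma). That threshold asks for a change of more than 1.5-fold with a p under 0.05, and the p was taken here before adjustment. It was passed by 0.679% of all tested clusters with 3α-THP against V, by 0.0236% with P4 against V, by 0.396% with F against V and by 0.25% with 3α-THP against P4. Among 20 differences (5 genes in 4 comparisons), 1 had an unadjusted p under 0.05, that of NR3C2 between 3α-THP and P4, and it did not pass adjustment over all clusters. For the other 19, the 95% interval of the difference lay inside a 1.5-fold change either way. An analysis of variance as in the methods returns the same 20 differences, all under 1.5-fold, so it could call none of them. The arrays read RNA of whole cultures, so that fewer cells expressing a gene and less of its RNA per cell cannot be told apart.

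**Figure D1:**
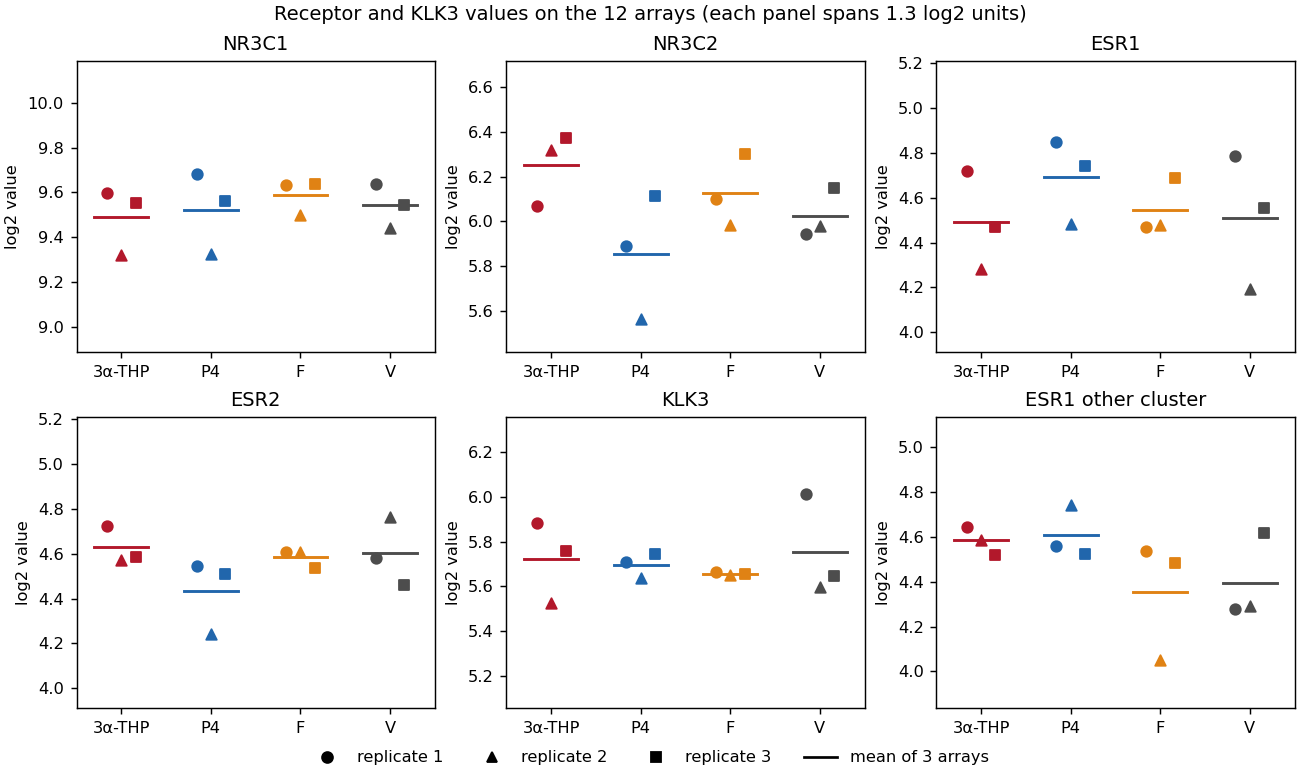
Log2 values of the 5 genes and of the second ESR1 cluster on the 12 arrays, with treatments on the x axis (3α-THP, P4, F, V), symbols for replicate numbers, a bar for the mean of 3 arrays, and a span of 1.3 log2 units in every panel. For NR3C1 the 4 arrays numbered 2 (triangles, 9.32 to 9.50) lie below the other 8 (9.55 to 9.68), and for NR3C2 the P4 array numbered 2 is the lowest of all at 5.56.

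NR3C2, the mineralocorticoid receptor, had log2 values of 6.07, 6.32 and 6.37 on the 3 3α-THP arrays (replicates 1 to 3), 5.89, 5.56 and 6.12 on the P4 arrays, 6.10, 5.98 and 6.30 on the F arrays, and 5.94, 5.98 and 6.15 on the V arrays. The lowest 2 values of all were both from P4 and the highest 2 both from 3α-THP, but replicate 1 of 3α-THP lay below replicate 3 of P4, so that the groups overlapped. The means were 6.25 ± 0.164 with 3α-THP, 5.86 ± 0.278 with P4, 6.13 ± 0.160 with F and 6.02 ± 0.109 with V (SD, n = 3 each), and neighbours in the order 3α-THP, F, V, P4 overlapped.

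At the matched dose of 10 nM, NR3C2 was 0.40 higher on the log2 scale with 3α-THP than with P4 (SE 0.138, 95% interval 0.10 to 0.70, 1.32-fold; limma adjusted p = 0.999), with an unadjusted p under 0.05. A p under 0.05 was reached by 3.96% of all clusters in this comparison. The difference was positive for each replicate number, at 0.18, 0.76 and 0.26, and the value for number 2 rested on the lowest P4 array. Without that array it was 0.25 and its unadjusted p was over 0.05, and over all arrays left out in turn it ran from 0.25 to 0.53. Leaving out replicate 3 of 3α-THP also took that p over 0.05, at a difference of 0.34.

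Against V, NR3C2 differed by 0.23 with 3α-THP (SE 0.138, limma adjusted p = 0.782), by -0.17 with P4 (SE 0.138, adjusted p = 1.000) and by 0.10 with F (SE 0.138, adjusted p = 0.999). When the replicate number was added to the fit as a block, the difference of 3α-THP from V had an unadjusted p under 0.05 and an adjusted p of 0.347. In that fit 13.4% of all clusters had a p under 0.05 in this comparison. With the block, the difference of 3α-THP from P4 had a 95% interval of 0.18 to 0.62 and an unadjusted p under 0.05. Its adjusted p was 0.424. In that comparison 9% of all clusters had an unadjusted p under 0.05 with the block. Over the 4 treatments together (limma's moderated F), 0 of the 5 genes had an unadjusted p under 0.05, beside 3.81% of all clusters, and with the block 1 of 5 did, NR3C2, beside 9.02% of all clusters. The adjusted p of all 5 was 1.000 without the block.

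NR3C1, the glucocorticoid receptor, was the brightest row, brighter than 94.0% of clusters. Its log2 values were 9.60, 9.32 and 9.55 with 3α-THP, 9.68, 9.32 and 9.56 with P4, 9.63, 9.50 and 9.64 with F, and 9.64, 9.44 and 9.55 with V. In every treatment the array numbered 2 was the lowest, and these 4 arrays did not overlap with the other 8. The 4 treatments overlapped, with means of 9.49 ± 0.148, 9.52 ± 0.181 and 9.59 ± 0.078 for 3α-THP, P4 and F and 9.54 ± 0.098 for V (SD, n = 3 each).

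The differences of NR3C1 from V were -0.05 with 3α-THP, -0.02 with P4 and 0.05 with F, each with an SE of 0.108 (limma, adjusted p from 0.963 to 1.000). Between 3α-THP and P4 the difference was -0.03, with a 95% interval of -0.26 to 0.20. All 4 intervals lay within 1.5-fold, which bounds a change in this gene's signal but does not show that the treatments acted alike.

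ESR1, estrogen receptor alpha, lay among the dim rows, brighter than 19.4% of clusters. Its values were 4.72, 4.28 and 4.47 with 3α-THP, 4.85, 4.48 and 4.74 with P4, 4.47, 4.48 and 4.69 with F, and 4.79, 4.19 and 4.55 with V. The spread within a treatment was wide, at 0.217 (pooled SD), more than that of 86.2% of clusters, and the V arrays alone covered most of the range of the 12. Means were 4.49 ± 0.220 with 3α-THP, 4.69 ± 0.189 with P4, 4.55 ± 0.124 with F and 4.51 ± 0.300 with V (SD, n = 3 each).

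P4 differed from V by 0.18 for ESR1, with a positive sign for each replicate number (0.06, 0.29 and 0.19), 3α-THP by -0.02 and F by 0.03 (SE 0.155 each; limma, adjusted p from 0.991 to 1.000). Between 3α-THP and P4 the difference was -0.20 (95% interval -0.53 to 0.14, limma adjusted p = 0.999). It was negative for each number, so that the main ESR1 row and NR3C2 stood on opposite sides of 0 in this comparison.

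A second, dimmer ESR1 cluster gave 4.65, 4.59 and 4.52 with 3α-THP, 4.56, 4.74 and 4.53 with P4, 4.54, 4.05 and 4.48 with F, and 4.28, 4.29 and 4.62 with V. It carries 1 accession, which had no match in RefSeq, while 6 of the 20 accessions of the main cluster matched, all of them ESR1. The clusters disagreed on 3α-THP, whose difference from V was 0.19 in the second (SE 0.132, limma adjusted p = 0.824) against -0.02 in the main one, and on F, at -0.04 against 0.03. Both gave P4 above V, by 0.21 in the second cluster, and neither value exceeded its error at the 95% level. By replicate number the second cluster gave 0.28, 0.45 and -0.09 for P4 minus V, so its signs were mixed. Between 3α-THP and P4 it gave -0.03, against -0.20 in the main cluster, again with mixed signs (0.08, -0.16 and -0.01).

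ESR2, estrogen receptor beta, was also a dim row, brighter than 19.4% of clusters. Its values were 4.73, 4.57 and 4.59 with 3α-THP, 4.54, 4.24 and 4.51 with P4, 4.61, 4.61 and 4.54 with F, and 4.58, 4.76 and 4.46 with V. The 3 3α-THP arrays all lay above the 3 P4 arrays, the only pair of groups among the 20 without overlap. Groups without overlap were seen in 8.22% of all clusters in that comparison, in 11.3% with 3α-THP against V, in 5.44% with P4 against V and in 9.11% with F against V.

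The ESR2 means were 4.63 ± 0.084 with 3α-THP, 4.43 ± 0.166 with P4, 4.58 ± 0.041 with F and 4.60 ± 0.153 with V (SD, n = 3 each). 3α-THP exceeded P4 by 0.20 (SE 0.102, 95% interval -0.02 to 0.42; limma adjusted p = 0.999). P4 differed from V by -0.17, 3α-THP by 0.03 and F by -0.02 (SE 0.102 each, adjusted p from 0.982 to 1.000). P4 thus had the lowest mean for both ESR2 and NR3C2 and the highest for ESR1, and the same 3 P4 arrays carry all of these values.

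KLK3, which encodes prostate-specific antigen, a secreted protease, gave 5.88, 5.53 and 5.76 with 3α-THP, 5.71, 5.64 and 5.74 with P4, 5.66, 5.65 and 5.66 with F, and 6.01, 5.60 and 5.65 with V. The F arrays were nearly equal, and the highest array of all was replicate 1 of V. Mean values were 5.72 ± 0.180 with 3α-THP, 5.70 ± 0.054 with P4, 5.66 ± 0.0063 with F and 5.75 ± 0.229 with V (SD, n = 3 each), so that every steroid's mean lay within the range of the V arrays.

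F, the 5α-reductase inhibitor, differed from V by -0.09 for KLK3 (95% interval -0.35 to 0.16), 3α-THP by -0.03 and P4 by -0.06, each with an SE of 0.116 (limma, adjusted p from 0.983 to 1.000). 3α-THP and P4 differed by 0.03 (95% interval -0.23 to 0.28). The gene was brighter than 37.1% of clusters.

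TMPRSS2 encodes a membrane-bound serine protease. Its symbol occurs only on a cluster annotated with 3 genes, TMPRSS2, LOC285847 and FKBP5. FKBP5 is itself a hormone target, so the signal was assigned to no gene and was left out of the counts. Of the 9 accessions of the cluster, 2 matched RefSeq, both as TMPRSS2. It read 4.25, 4.22 and 4.40 with 3α-THP, 4.40, 4.21 and 4.20 with P4, 4.55, 4.20 and 4.24 with F, and 4.37, 4.26 and 4.35 with V. These groups overlapped, and the differences from V were -0.04, -0.06 and 0.01 for 3α-THP, P4 and F (SE 0.104 each, limma adjusted p from 0.974 to 1.000).

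**Figure D2:**
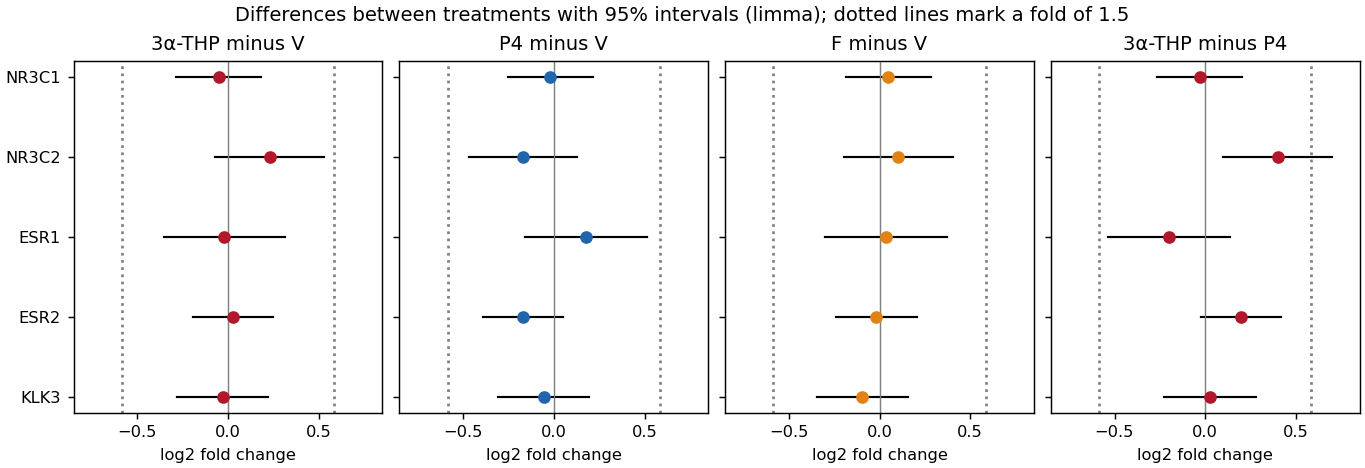
Log2 fold changes of the 5 genes in the 4 comparisons, as points with 95% intervals from limma; dotted lines mark a fold of 1.5 either way. NR3C2 in 3α-THP minus P4 (0.40, 0.10 to 0.70) is the only interval that lies clear of 0 and the only one that crosses a dotted line.

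The replicate number took a larger share of the spread than treatment did for 3 of the 5 genes. Of the sum of squares over 12 arrays it took 79.7% for NR3C1, 57.6% for ESR1 and 48.9% for KLK3, against 9.74%, 16.2% and 7.61% for treatment. For NR3C2 and ESR2 the order was the other way, with 47.5% and 37.1% for treatment and 32.4% and 9.65% for the number. With 4 treatments and 3 numbers, spread without any pattern already gives treatment the larger share. Neither of these genes had an unadjusted p under 0.05 in the moderated F test without the block. Over all clusters the medians were 20.7% for treatment and 28.7% for the number, and 4.20% of clusters had their arrays numbered 2 all below the other 8, as NR3C1 did. The labels do not say what a number stands for.

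**Figure D3:**
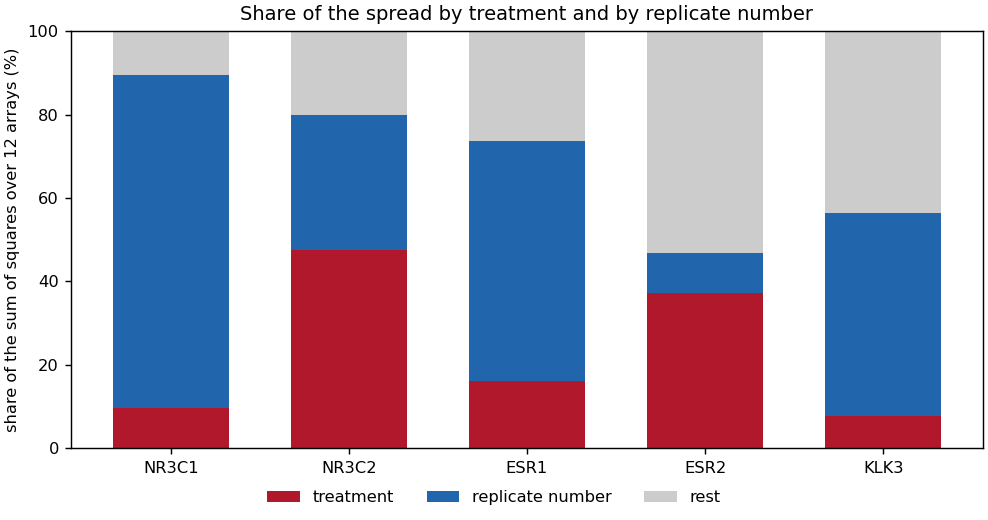
Share of the sum of squares over the 12 arrays (%) taken by treatment, by replicate number and by the rest, for each of the 5 genes. The replicate number takes 79.7% for NR3C1, and treatment takes 47.5% for NR3C2, the highest treatment share of the 5.

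Values of NR3C1 and ESR1 varied together over the arrays (Pearson r = 0.74, n = 12), as did those of KLK3 and ESR1 (0.68) and of KLK3 and NR3C1 (0.58). With the mean of each replicate number removed, these were 0.20, 0.38 and -0.03. ESR2 and NR3C2 then stood at 0.68 (0.43 before removal) and NR3C2 and ESR1 at -0.55 (-0.13 before). The arrays share treatments and numbers, and these correlations are descriptions without a test.

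Among 18417 genes with a row of their own, those most like each member over the 12 arrays were found by Pearson correlation. MTHFD2L, a mitochondrial folate enzyme, was nearest to NR3C2 (r = 0.96), followed by SMAD5, a transducer of bone morphogenetic protein signals (0.93), and ULBP1, a ligand of an activating receptor on natural killer cells (0.92). Mean log2 values of MTHFD2L were 6.30 with 3α-THP, 6.04 with P4, 6.20 with F and 6.12 with V, the same order of treatments as NR3C2. For NR3C1 they were IL1R2, the decoy receptor for interleukin-1 (0.97), PCDHB9, a protocadherin (0.95), and ATXN7L1 (0.95). Those of ESR1 were PEX11A, a peroxisomal membrane protein (0.93), MEIS3, a homeobox factor (0.92), and SNORD63, a small nucleolar RNA (0.91). TEAD1, a factor of the Hippo pathway (0.86), HJV (0.85) and the T cell gene CD2 (0.84) stood nearest to ESR2, and AIF1L (0.93), KIAA1671 (0.93) and IL17B (0.93) nearest to KLK3. A few highest values out of so many are high by their selection.

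The wider machinery of steroid signalling was followed in 8 lists with 129 genes, of which 119 had a row of their own. None of the 119 passed the 1.5-fold threshold in any comparison (limma). The methods' analysis of variance returns the same differences, all under 1.5-fold, so it could call none of them either. An unadjusted p under 0.05 was found for 6 genes with 3α-THP against V, 2 with P4, 5 with F and 5 with 3α-THP against P4, or 5.04%, 1.68%, 4.20% and 4.20% of them, beside 7.34%, 1.82%, 4.69% and 3.96% of all clusters. Median differences over the 119 genes were -0.06, -0.01, -0.04 and -0.05, and those over all tested clusters were -0.03, -0.01, -0.02 and -0.01.

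Of the partners that fold or assist receptors, 0 of 13 measured chaperones and immunophilins were called in any comparison. With 3α-THP their median difference from V was -0.08, with 4 of 13 positive. DNAJB1, a co-chaperone of HSP70, averaged 7.81 with 3α-THP, 7.98 with P4, 8.04 with F and 8.11 with V, a difference of -0.30 for 3α-THP (SE 0.145, limma adjusted p = 0.705). CDC37, which delivers clients to HSP90, differed by -0.20 (SE 0.084, adjusted p = 0.636).

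In the 19 measured coregulators, NRIP1, a corepressor that liganded estrogen receptors both recruit and induce, had the smallest p. It averaged 7.90 with 3α-THP, 7.59 with P4, 7.83 with F and 7.46 with V. The difference from V was 0.44 with 3α-THP (SE 0.145, limma adjusted p = 0.541), 0.37 with F (adjusted p = 0.935) and 0.13 with P4 (adjusted p = 1.000), all under 1.5-fold. PRMT1, a coactivator that methylates histone arginines, differed by -0.14, -0.19 and -0.17 with 3α-THP, P4 and F. NRIP1 is also 1 of the 18 measured estrogen targets, whose median differences from V were -0.06, -0.00 and -0.07, and among them BCL2, an inhibitor of apoptosis, differed by -0.22 with F (SE 0.091, adjusted p = 0.999).

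Other androgen targets numbered 15 measured genes, with medians of 0.03 with 3α-THP, -0.01 with P4 and -0.05 with F against V, and 0 called. PMEPA1, which restrains TGF-beta signals, averaged 6.95 with 3α-THP, 7.11 with P4, 7.03 with F and 7.25 with V, a difference of -0.30 for 3α-THP (SE 0.121, limma adjusted p = 0.619). KLK4, a neighbour of KLK3 in the kallikrein cluster, differed by 0.26 with P4 (SE 0.087, adjusted p = 1.000), by 0.03 with 3α-THP and by 0.06 with F. In the kallikrein and transmembrane serine protease families, where all 25 genes were measured, the medians were -0.02, 0.00 and -0.04 with 3α-THP, P4 and F, and KLK5, a protease of the skin barrier, differed by -0.25 with F (SE 0.101, adjusted p = 0.944).

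Glucocorticoid targets had a median difference of -0.10 between 3α-THP and V over 21 measured genes, of which 4 were positive, 0 were called and 2 had an unadjusted p under 0.05 (7 with the replicate block). Over all clusters 41.1% of these differences were positive, 7.34% had such a p and 13.4% did with the block. The medians with P4 and F were -0.01 and -0.02. SAA1, an acute phase protein, averaged 3.31 with 3α-THP, 3.64 with P4, 3.61 with F and 3.87 with V, and its difference of -0.56 with 3α-THP (SE 0.246, limma adjusted p = 0.658) was the largest of the 119 genes, in a row brighter than only 9.83% of clusters. CEBPD, a transcription factor of the same response, differed by -0.26 (SE 0.113, adjusted p = 0.638).

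Mineralocorticoid targets and the genes that decide aldosterone selectivity had medians of -0.10 with 3α-THP, -0.06 with P4 and -0.06 with F over 11 measured genes, of which 1, 3 and 3 were positive and 0 called. Over all clusters 41.1%, 43.9% and 41.8% were positive. SCNN1G, the gamma subunit of the epithelial sodium channel, averaged 4.55 with 3α-THP, 4.81 with P4, 4.60 with F and 4.91 with V. It differed from V by -0.36 with 3α-THP (SE 0.106, limma adjusted p = 0.468) and by -0.31 with F (adjusted p = 0.911). The beta subunit SCNN1B differed by -0.17 with 3α-THP (SE 0.087). ESRRB, an orphan receptor related to the estrogen receptors, and GPER1, a membrane receptor for estrogen, both differed from V by 0.17 with P4 (SE 0.111 and 0.117, adjusted p = 1.000), in a list of 4 genes with 0 called.

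**Figure D4:**
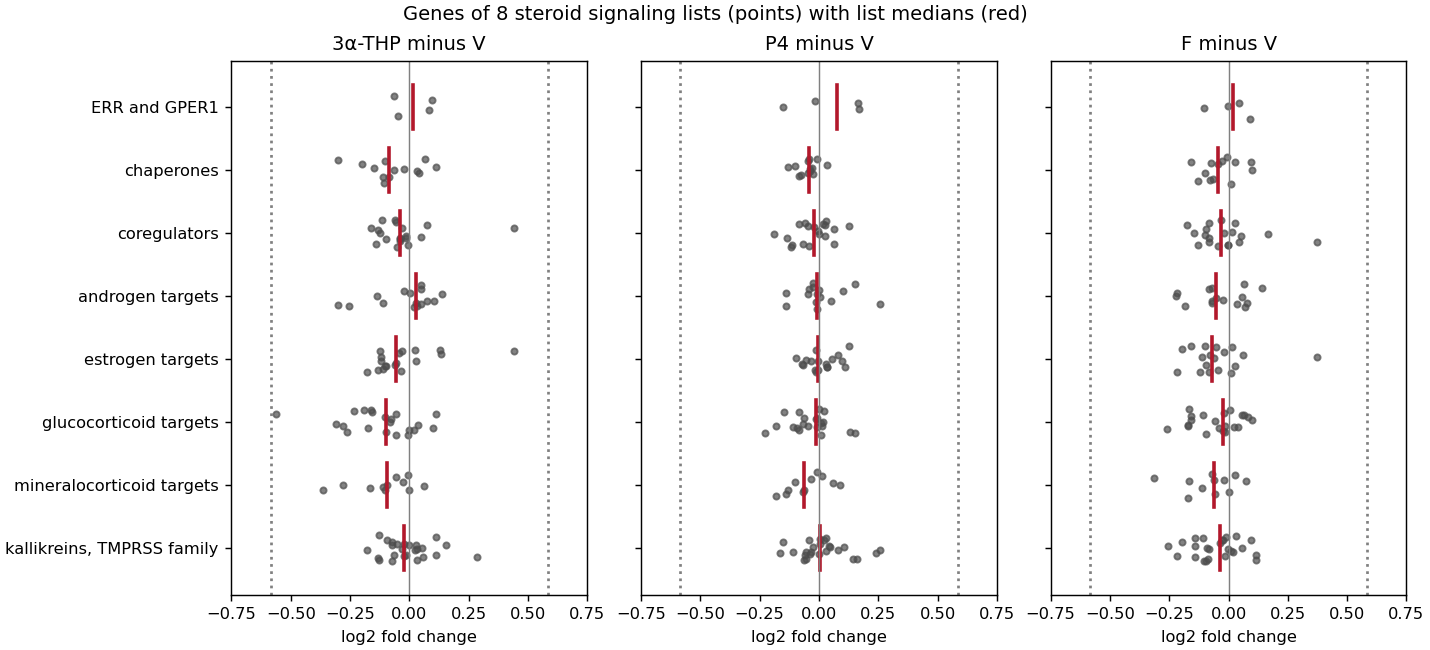
Log2 fold changes of the measured genes of 8 steroid signalling lists (grey points) with the median of each list (red bar), for 3α-THP, P4 and F, each minus V. All points lie inside the dotted lines at 1.5-fold, and the extremes are SAA1 (-0.56) and NRIP1 (0.44), both with 3α-THP.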

How the data were processed

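The authors deposited log2 values per transcript cluster for 12 arrays, made with Affymetrix Expression Console 1.4 per the submitters' processing notes. Quantile normalization is named in the paper's methods, but which method made the deposited table is not given in the sources used here. A genome build is not named either. The log2 values were used as deposited. A limma model (version 3.58.1, R 4.3.3) with a mean for each treatment was fitted to the 21214 clusters with a gene name, and p-values were adjusted by the Benjamini-Hochberg method over all of them. Called means a fold over 1.5 and a p under 0.05, as in the methods, taken here before adjustment since the methods do not say which p they used. The V arrays are shared by 3 comparisons. Steroids were compared directly only at the same dose. The number of arrays limits the precision.

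Deviations from the treatment means of arrays with the same replicate number correlated at 0.13 to 0.63 (median 0.40, 18 pairs). Those with different numbers correlated at -0.60 to 0.23 (median -0.25, 36 pairs), so the sets overlapped. Deviations sum to 0 within a treatment, so the sets are not independent. On the medians, the number was taken to pair the arrays. The pairing comes from the data, as the labels do not say what a number marks. The unpaired fit is the main one, as in the methods, and a fit with the number as a block was run beside it. Where nothing says that replicates came from separate cultures beyond the word biological, p-values measure the spread between these arrays.

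Members and gene lists were chosen with earlier results of these data known, and the lists come from general knowledge. Named genes are the members, the 3 genes most correlated with each, and in each of the 8 steroid signalling lists the genes called in any comparison and the 2 with the smallest p against V. Cell type markers are named where the check of the cell type needed them, and those named were chosen after their values were seen. Gene symbols come from the platform annotation, updated through RefSeq. Promoter windows are from RefSeq. The fit was tested on simulated data. Alternatives were the block, a fit of only the treatments compared, the methods' analysis of variance, a variance trend, array weights, quantile normalization or median centring, other sets of clusters, a lower fold and each array left out.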

Additional observations from a re-analysis of the deposited data

Results flagged for a closer look

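The differences of NR3C2 from V had opposite signs for 3α-THP and P4, given at the same dose. Neither had an unadjusted p under 0.05 in the main limma fit. The difference of 3α-THP from V was positive for each replicate number (0.12, 0.34 and 0.23 on the log2 scale) and that of P4 from V was negative for each (-0.06, -0.42 and -0.03). Both use the same V arrays, so the signs are not independent. With each array left out in turn, the difference of P4 from V ran from -0.30 to -0.02. That of 3α-THP from V ran from 0.17 to 0.32. The test of the difference itself is 3α-THP against P4, at 0.40 (limma adjusted p = 0.999). Groups of 3 arrays are too small for a search for outlying arrays.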

How the results depend on the processing

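Over 448 member differences under 12 settings that leave out an array and 12 others, 421 kept their direction and call, 26 changed sign (21 on leaving out an array) and 1 became called. That one is NR3C2 with 3α-THP against P4, at a fold threshold of 1.2. Many of the 448 could not change sign. The block, the fit of only the treatments compared and the analysis of variance return the same difference by design. The variance trend, the lower fold and the other sets of clusters do so too. So does leaving out an array of a treatment outside the comparison. The 421 therefore do not measure how firmly directions held. The replicate block put 1 of 5 members (0 without it) under p 0.05 in the moderated F test, NR3C2, and changed no other call of a member. The moderated F test gave 1 cluster at an adjusted p under 0.05, 2 with the replicate block, 3 over all clusters of the table and 0 with 1 cluster per gene.

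Clusters called with 3α-THP, P4 and F against V and with 3α-THP against P4 numbered 144, 5, 84 and 53. At a fold of 1.2 they were 932, 189, 648 and 500, and list genes called were then 5 with 3α-THP, 2 with F and 3 with 3α-THP against P4. Over all clusters of the table they were 366, 150, 311 and 190. The analysis of variance gave 2 with P4 and 23 with 3α-THP against P4, and array weights 17 with P4 and 162 with F. Omission of dim clusters gave 0 with P4, 54 with F and 35 with 3α-THP against P4. That setting kept only NR3C1 among the members, as NR3C2 was brighter than 44.2% of clusters and the rest were dimmer. Leaving out an array gave 104 to 240, 4 to 19, 44 to 167 and 25 to 135 clusters, 0 to 1 list genes with 3α-THP, and in the F test 0 to 1 clusters and 0 to 1 members. The cause of these shifts was not tested.

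Signs turned with array weights for KLK3 with 3α-THP (0.037), ESR2 with F (0.062) and ESR1 with F (-0.0040), and in the other ESR1 cluster for 3α-THP (0.19) and F (-0.039). Leaving out an array turned signs against V for ESR2 (-0.044 to 0.11 with 3α-THP, -0.089 to 0.063 with F), KLK3 (-0.11 to 0.10 with 3α-THP, -0.13 to 0.076 with P4, -0.17 to 0.037 with F), NR3C1 (-0.10 to 0.034 with 3α-THP, -0.10 to 0.079 with P4, -0.0024 to 0.095 with F) and ESR1 (-0.18 to 0.12 with 3α-THP, -0.12 to 0.17 with F). With 3α-THP against P4 it did so for KLK3 (-0.055 to 0.12) and NR3C1 (-0.13 to 0.054).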
